A study of Mus musculus with 7 samples.

Results

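The 9 genes described here encode ubiquitin ligases and ligase adaptors that have been tied to T cell anergy, the state in which a T cell that met its antigen no longer responds to it. They are Cbl, Cblb, Itch, Nedd4, Nedd4l, Ndfip1, Ndfip2, Peli1 and Rnf128, chosen by name from the 24084 gene symbols of the count table, and all 9 passed the filter on low counts that left 11376 genes. The libraries were made from messenger RNA of regulatory T cells, or Tregs, the Foxp3-expressing CD4 T cells that hold other immune cells in check, isolated from skin and from skin-draining lymph nodes (SDLN) of mice of the strain Foxp3-DTR, aged 6 weeks, whose design text names a DTR/GFP allele of Foxp3 (a diphtheria toxin receptor fused to green fluorescent protein). All 7 libraries share that allele, age and kit. There were 3 SDLN libraries and 4 libraries of skin named as telogen, when hair follicles rest, and the labels do not say how many animals went into each, so p-values measure the spread between these libraries.

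A ubiquitin ligase passes ubiquitin, a small protein tag, to a chosen substrate, which can mark it for the proteasome or change where it goes. Cbl and Cblb are RING-type ligases that dampen signalling downstream of the T cell receptor and of CD28, and loss of Cblb lets T cells respond without costimulation. Itch, Nedd4 and Nedd4l belong to the NEDD4 family of HECT-type ligases, whose WW domains bind proline-rich motifs. Ndfip1 and Ndfip2 are not ligases but membrane adaptors that carry such motifs and activate these HECT ligases. Peli1 (Pellino-1) is a RING-like ligase that restrains T cell activation through the NF-kappaB subunit c-Rel, and Rnf128 (GRAIL) is a membrane-bound ligase named for its role in anergic lymphocytes.

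Depth and purity are given once. Total gene counts per library ranged from 13123241 to 14785751 in SDLN and from 11009609 to 13921238 in skin. Per library, 3 counts stood for 0.204 to 0.276 CPM, the counts scaled to 1000000 per library. Each SDLN library detected more genes (13408 to 13845) than each skin library (9690 to 12639). Of the 11376 tested genes, 271 were at zero throughout skin and 15 throughout SDLN. The part of this difference in the low skin values of single genes was not tested. Skin libraries correlated with each other (r of log2 CPM across genes 0.624 to 0.699) no better than with SDLN libraries (0.617 to 0.700), against 0.964 to 0.981 among SDLN libraries. All 7 Treg and T cell markers had counts in every library, and Foxp3 itself was at 69.0 to 102 CPM in SDLN and 107 to 248 CPM in skin (log2 fold change 0.93, SE 0.38, edgeR adjusted p = 0.242). Of the other 6, Ctla4 and Ikzf2 rose in skin (adjusted p 0.00501 and 0.0385). Cd3e (means 1848 and 882 CPM in SDLN and skin), Cd3d (1081 and 580 CPM) and Cd4 (738 and 466 CPM) were lower in every skin library than in any SDLN library without passing (adjusted p 0.118, 0.179 and 0.246), and Il2ra averaged 1663 and 1367 CPM (adjusted p 0.585). Markers of macrophages and dendritic cells summed to 333 to 540 CPM in SDLN and 648 to 9532 CPM in skin. The sum was highest in skin 4, where 7 of 8 markers had counts and Cd207 had none. Cd74 alone made up most of it in each library, at 300 to 490 CPM in SDLN and 488 to 7055 CPM in skin. Lyz2 (8.08 to 15.4 and 63.5 to 471 CPM) and H2-Aa (16.5 to 29.2 and 56.8 to 1921 CPM) were higher in every skin library than in any SDLN library. Both passed in edgeR (adjusted p 0.0380 for each), while Cd74 (0.0937), Csf1r (0.245) and Cd68 (0.752) did not. Adgre1, Itgax and Cd207 were not tested. In skin 2, 3 of the 8 markers had counts, and the sum was 2373 CPM. Fibroblast and keratinocyte markers summed to 1997 and 561 CPM in skin 3 and to at most 8.84 and 20.7 CPM in any other library. For skin 1, 1 of the tags gives the lymph node as tissue although the title and source name of that library say skin. Skin 1 correlated with SDLN libraries at no more than 0.700, so it did not resemble a further SDLN library. SDLN 3 was the sole library with more than 2 counts of the Y-linked gene Ddx3y (3877). Xist, a transcript of female cells, had 4 counts there, 4701 and 4653 in SDLN 1 and 2, and 9522 to 11758 in skin. By these 2 genes SDLN 3 was male and the other libraries female, so sex was not balanced between the tissues. The part of sex in the differences was not tested. In bulk RNA, fewer cells of a type and less RNA per cell cannot be told apart.

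Ndfip1 and Peli1 were higher in the skin libraries than in the SDLN libraries. They were the 2 of 9 members that passed an adjusted p of 0.05 in edgeR's quasi-likelihood test. Neither passed without SDLN 1, 2 or 3, without the low-count filter or among genes averaging at least 5 CPM. The part of other cell types in their levels was not tested. Over all 11376 tested genes, 7.24% passed, 3.28% higher in skin and 3.96% lower. No member was called lower by edgeR, DESeq2 or limma-voom, and edgeR gave none an unadjusted p under 0.05 in that direction. For 9 genes, 0 calls is near the 3.96% of all tested genes and says nothing particular of the members. The other 7 members did not pass, 5 of them with a higher and 2 with a lower fitted level in skin. The median log2 fold change of the 9 members was 0.93, beside 0.05 over all tested genes. The libraries of the 2 tissues did not overlap for 3 members, Ndfip1, Peli1 and Nedd4l, where 26.6% of all tested genes did not overlap (10.1% with skin above, as for Ndfip1 and Peli1, and 16.5% with skin below). A share of 2 in 9 called rests on few genes and is described here without a test of the list.

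**Figure D1:**
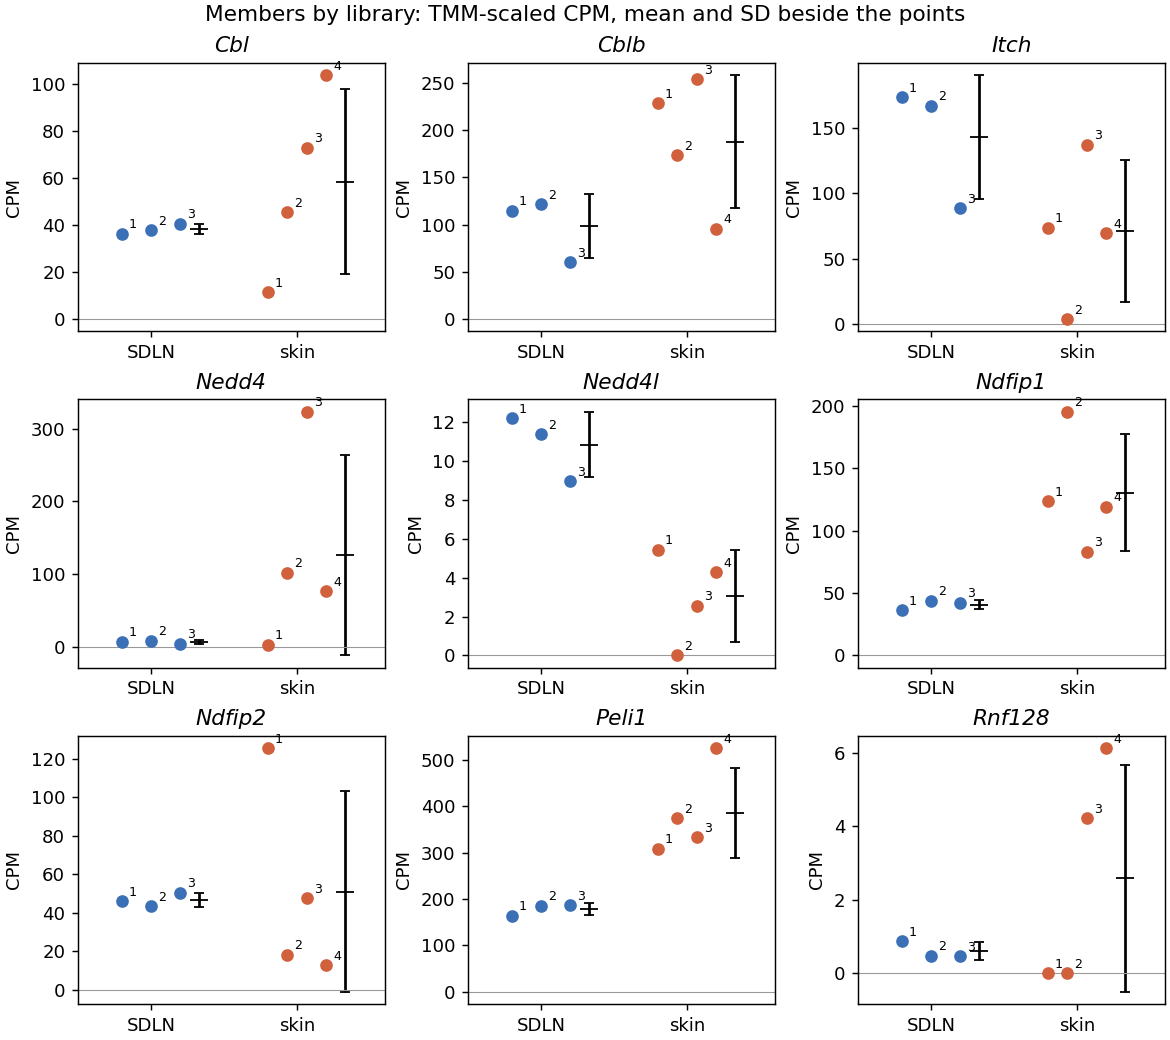
Level of each member in CPM on TMM-scaled library sizes (vertical axis, linear, one scale per gene) in the 3 SDLN and 4 skin libraries; each point is 1 library with its replicate number, and the bar beside the points is the mean with its SD. Every skin library lies above every SDLN library for Ndfip1 and Peli1 and below for Nedd4l, and the skin points of Nedd4 run from 2.76 to 324 CPM.

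Ndfip1, the adaptor that recruits and activates Itch and Nedd4, lies on chromosome 18 (38410396 to 38465303, plus strand, GRCm38). Its level was 36.4, 43.6 and 42.2 CPM in SDLN 1 to 3 and 124, 195, 83.1 and 119 CPM in skin 1 to 4. Each skin library was above each SDLN library, and skin 2 was the highest. The mean was 40.7 ± 3.85 CPM (SD, n = 3) for SDLN against 130.3 ± 47.0 CPM (SD, n = 4) for skin, a 3.20-fold higher fitted level (log2 fold change 1.68, SE 0.39, edgeR adjusted p = 0.0394). Ndfip1 did not pass without SDLN 1, 2 or 3 (adjusted p 0.171 to 0.222) or without skin 4 (adjusted p = 0.0648), while its log2 fold change stayed between 1.40 and 1.85 in all 7 of these fits. It did not pass with limma-voom (0.0538), without the low-count filter (0.114), among genes of at least 5 CPM (0.0575) or with a block for the replicate number (0.307 on 7 libraries and 0.341 on 6), and DESeq2 gave 8.10e-04.

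Ndfip2, the second adaptor, lies on chromosome 14 (105258573 to 105309298, plus strand) and did not follow Ndfip1. Its level was 46.1, 43.6 and 50.4 CPM in SDLN 1 to 3 and 126, 18.2, 47.7 and 12.7 CPM in skin 1 to 4. Skin 1 stood above all SDLN libraries, skin 2 and 4 below all of them, and skin 3 among them. The means were 46.7 ± 3.47 CPM (SD, n = 3) and 51.0 ± 52.0 CPM (SD, n = 4), with a log2 fold change of 0.13 (SE 0.80, edgeR adjusted p = 0.970) that turned to -0.83 without skin 1. Per kilobase of exon, Ndfip1 was 1.44 to 1.83 times as abundant as Ndfip2 in the SDLN libraries. The same ratio was 19.6, 3.18 and 17.1 in skin 2, 3 and 4, all above the SDLN range, and within that range in skin 1.

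Peli1 lies on chromosome 11 (21091291 to 21150323, plus strand) and was the most abundant member per kilobase of exon in each of the 7 libraries. Its level was 164, 186 and 186 CPM in SDLN 1 to 3 and 308, 374, 333 and 526 CPM in skin 1 to 4. All skin libraries were above all SDLN libraries, and skin 4 was the highest. The mean rose from 179 ± 12.6 CPM (SD, n = 3) to 385 ± 97.3 CPM (SD, n = 4), a 2.15-fold higher fitted level (log2 fold change 1.11, SE 0.27, edgeR adjusted p = 0.0443). Peli1 did not pass without SDLN 1, 2 or 3 (adjusted p 0.171 to 0.254), without skin 2 (0.0655) or skin 4 (0.0725), with upper-quartile scaling (0.0746), without the low-count filter (0.133), among genes of at least 5 CPM (0.0633), or with the replicate block (0.351 on 7 and 0.356 on 6 libraries), while DESeq2 gave 0.00144; its log2 fold change without 1 library was 0.91 to 1.20. Skin 4 was also the library with the highest sum of macrophage and dendritic cell markers, at 9532 CPM, of which Cd74 was 7055 CPM. In skin 3, where that sum was 648 CPM and fibroblast and keratinocyte markers stood at 1997 and 561 CPM, Peli1 was at 333 CPM and Ndfip1 at its lowest skin value, 83.1 CPM. The part of these markers in the levels of Peli1 and Ndfip1 was not tested.

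The 250 bases before the start of Peli1 are shown because it passed the test, and those before the starts of Nedd4 because it had the largest fold change. Windows from RefSeq (GRCm38.p6), whose starts need not be those of GENCODE, were matched for 6 of the 9 members. Capitals mark matches, on either strand, to 3 motifs: the AP-1 site TGANTCA, the NFAT core GGAAA and the GC box GGGCGG. The windows lie at chr11:21091074-21091323, chr9:72662081-72662330 and chr9:72693048-72693297, all on the plus strand.
Peli1: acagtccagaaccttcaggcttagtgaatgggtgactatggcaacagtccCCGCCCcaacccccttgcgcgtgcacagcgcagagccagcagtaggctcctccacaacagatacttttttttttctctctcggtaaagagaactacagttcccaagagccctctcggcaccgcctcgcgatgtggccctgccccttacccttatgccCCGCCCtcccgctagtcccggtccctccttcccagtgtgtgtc
Nedd4 start 1: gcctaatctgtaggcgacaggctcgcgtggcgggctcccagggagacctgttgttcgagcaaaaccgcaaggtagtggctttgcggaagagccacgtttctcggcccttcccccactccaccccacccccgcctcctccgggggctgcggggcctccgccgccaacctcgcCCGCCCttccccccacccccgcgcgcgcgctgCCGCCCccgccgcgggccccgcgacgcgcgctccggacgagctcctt
Nedd4 start 2: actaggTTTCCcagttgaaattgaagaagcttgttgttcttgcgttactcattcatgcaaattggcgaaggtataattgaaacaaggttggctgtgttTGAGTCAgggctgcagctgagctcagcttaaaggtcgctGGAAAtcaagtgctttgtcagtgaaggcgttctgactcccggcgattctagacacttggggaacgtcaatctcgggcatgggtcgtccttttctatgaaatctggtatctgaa
The window of Peli1 and that of the first Nedd4 start each hold 2 GC boxes and neither of the other motifs. The second Nedd4 start has 1 AP-1 site, 152 bases before the start, and 2 NFAT cores, with no overlap between them, and no GC box. Of all 32851 windows of this length, 6.75% hold the AP-1 site, 55.6% the NFAT core and 32.7% the GC box. These are matches of letters and say nothing of binding, and gene counts do not tell which start a Nedd4 read came from.

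Nedd4, the founding member of its HECT family, lies on chromosome 9 (72662346 to 72749852, plus strand). Its level was 6.92, 8.42 and 4.02 CPM in SDLN 1 to 3 and 2.76, 102, 324 and 76.5 CPM in skin 1 to 4. In 3 of 4 skin libraries it was far above SDLN, and in skin 1 it was below each SDLN library. The means were 6.45 ± 2.24 CPM (SD, n = 3) and 126 ± 138 CPM (SD, n = 4), so the SD in skin exceeded the mean. The log2 fold change of 4.29 (SE 1.33) was the largest in size among the 9 members and did not pass (edgeR adjusted p = 0.114, unadjusted p = 0.0123). Nedd4 passed without skin 1 (adjusted p = 0.0200) and with DESeq2 on all 7 libraries (adjusted p = 9.42e-04). Its highest value fell in skin 3, the library with 1997 CPM of fibroblast and 561 CPM of keratinocyte markers. In skin 2, with 4.21 and 0.0809 CPM of those markers, Nedd4 was at 102 CPM, and without skin 3 its log2 fold change was 3.23 (edgeR adjusted p = 0.191). The part of these markers in the level of Nedd4 was not tested.

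Nedd4l, a close relative of Nedd4 known for the control of ion channels, lies on chromosome 18 (64887705 to 65217828, plus strand) and was scarce in both tissues. Its level was 12.2, 11.4 and 8.96 CPM in SDLN 1 to 3 and 5.43, 0, 2.56 and 4.28 CPM in skin 1 to 4. All 4 skin libraries were below all SDLN libraries, which held for 16.5% of all tested genes, and skin 2 had no count, where 3 counts would be 0.243 CPM. The means were 10.9 ± 1.69 CPM (SD, n = 3) and 3.07 ± 2.36 CPM (SD, n = 4), and the difference did not pass (log2 fold change -1.82, SE 1.57, edgeR adjusted p = 0.646). Genes annotated on the opposite strand overlap Nedd4l, and also Cbl, Cblb, Itch, Ndfip1, Ndfip2 and Rnf128. Genes on the same strand overlap Cbl, Nedd4 and Peli1. The strand setting of the counting is not given in the sources used here. Per kilobase of exon, Nedd4 was 0.721 to 1.19 times Nedd4l in SDLN and 0.818 times in skin 1, but 204 and 28.8 times in skin 3 and 4.

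Itch, the HECT ligase whose loss gives the itchy mouse its inflamed skin, lies on chromosome 2 (155133509 to 155226855, plus strand). Its level was 173, 167 and 88.7 CPM in SDLN 1 to 3 and 73.5, 3.80, 137 and 69.5 CPM in skin 1 to 4. Skin 3 fell among the SDLN values, and skin 2 held 47 counts against 799 to 1553 in the other skin libraries. The means were 143 ± 47.1 CPM (SD, n = 3) and 70.9 ± 54.4 CPM (SD, n = 4), and Itch did not pass (log2 fold change -1.01, SE 0.88, edgeR adjusted p = 0.652). Its fitted log2 fold change was below 0 under each of the alternatives run, from -1.81 to -0.64, and passed under none. Per kilobase, Itch exceeded Nedd4 by 22.4 to 28.3 times in SDLN and 30.1 times in skin 1, against ratios of 0.0423, 0.478 and 1.03 in skin 2, 3 and 4.

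Cblb, the ligase that sets the need for CD28 costimulation, lies on chromosome 16 (52031225 to 52208048, plus strand). Its level was 115, 121 and 59.9 CPM in SDLN 1 to 3 and 229, 174, 254 and 95.6 CPM in skin 1 to 4. In 3 skin libraries Cblb was above all SDLN libraries, and skin 4 lay among them. The means were 98.6 ± 33.8 CPM (SD, n = 3) and 188 ± 70.2 CPM (SD, n = 4), a difference that did not pass (log2 fold change 0.93, SE 0.43, edgeR adjusted p = 0.305, unadjusted p = 0.0611). It did not pass under any alternative run (adjusted p 0.134 to 0.719).

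Cbl, its paralogue, lies on chromosome 9 (44142976 to 44234049, minus strand). Its level was 36.2, 37.8 and 40.5 CPM in SDLN 1 to 3 and 11.4, 45.4, 72.9 and 103.7 CPM in skin 1 to 4. Skin 1 was below each SDLN library and the other 3 skin libraries above each of them. The means were 38.2 ± 2.15 CPM (SD, n = 3) and 58.3 ± 39.3 CPM (SD, n = 4), and Cbl did not pass (log2 fold change 0.61, SE 0.70, edgeR adjusted p = 0.755). Its fitted log2 fold change was -0.15 with the replicate block on 7 libraries. Per kilobase of exon Cblb was above Cbl in 7 of 7 libraries, by 1.74 to 3.79 times in SDLN and by 23.6, 4.51, 4.11 and 1.09 times in skin 1 to 4.

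Rnf128, the ligase most tied to anergy by its name, lies on the X chromosome (139563316 to 139673145, plus strand) and was close to the limit of detection. It had 13, 7 and 6 counts in SDLN 1 to 3, which are 0.882, 0.483 and 0.463 CPM, and 0, 0, 48 and 86 counts in skin 1 to 4, of which the last 2 are 4.23 and 6.13 CPM. In skin 1 and 2, 3 counts would be 0.276 and 0.243 CPM, levels below the lowest SDLN library. Rnf128 did not pass (log2 fold change 2.07, SE 2.04, edgeR adjusted p = 0.700), and its sign turned with limma-voom (-0.43). The 2 skin libraries with counts were those with the highest fibroblast and the highest macrophage and dendritic cell markers, 1997 CPM in skin 3 and 9532 CPM in skin 4; the part of these markers in Rnf128 was not tested.

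**Figure D2:**
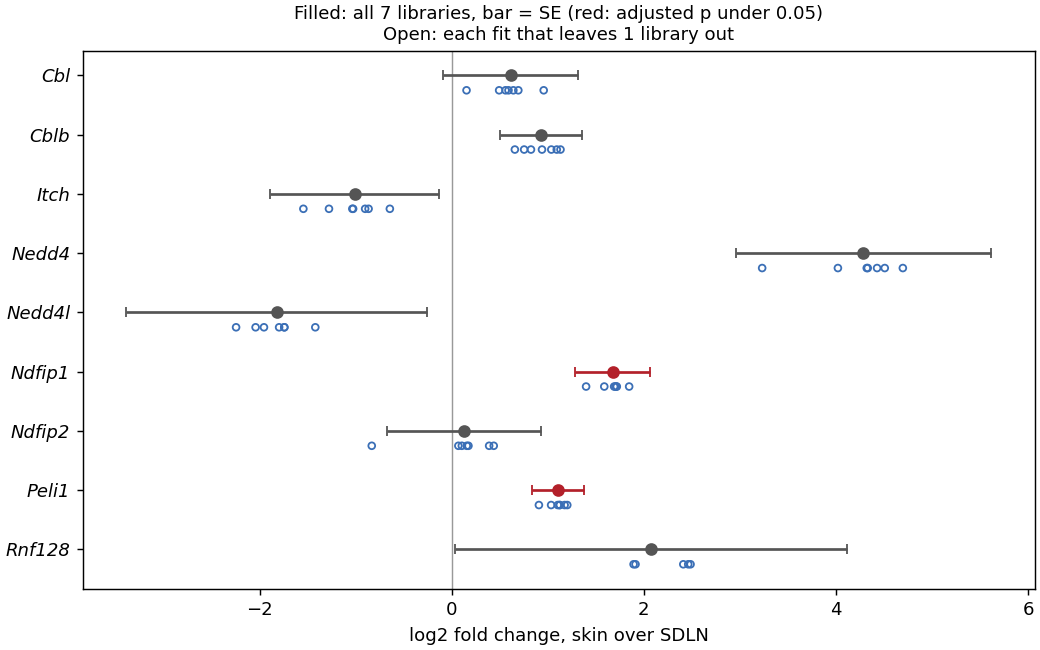
Log2 fold change of skin over SDLN for each member (horizontal axis), with the fit on all 7 libraries as filled points with SE bars (red where the adjusted p was under 0.05) and the fits without 1 library as open circles. Ndfip1 and Peli1 have the narrowest SEs, at 0.39 and 0.27, and Ndfip2 has open circles on both sides of 0; Rnf128 was tested in 5 of the 7 fits, since it did not pass the filter without skin 3 or skin 4.

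Divided by the length of the exons, the order of the members differed between the tissues. In SDLN the mean level in CPM per kilobase was 27.3 for Peli1, 14.7 for Itch, 9.42 for Cblb, 6.43 for Ndfip1, 4.04 for Ndfip2, 3.09 for Cbl, 0.615 for Nedd4l, 0.588 for Nedd4 and 0.176 for Rnf128. Neighbours in that order whose libraries overlapped were Itch and Cblb, Cblb and Ndfip1, and Nedd4l and Nedd4. In skin the mean was 58.8 for Peli1, 20.6 for Ndfip1, 17.9 for Cblb, 11.5 for Nedd4, 7.31 for Itch, 4.73 for Cbl, 4.42 for Ndfip2, 0.748 for Rnf128 and 0.174 for Nedd4l. There Peli1, at 47.0 to 80.2, did not overlap with Ndfip1, at 13.1 to 30.8, and each later pair of neighbours overlapped. Exon length is the union over all annotated transcripts, so a gene with long rare exons is understated.

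**Figure D3:**
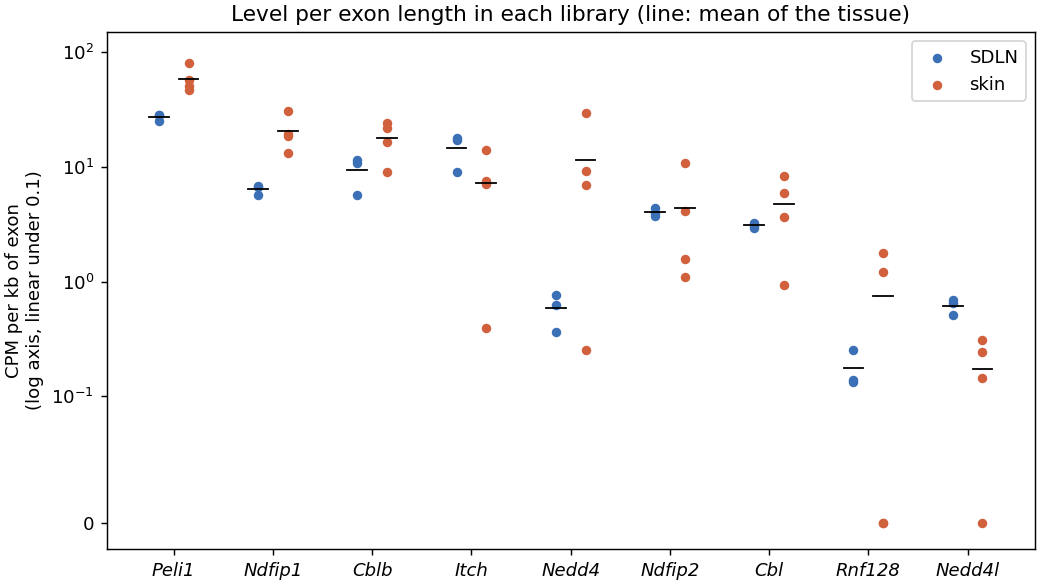
Level of each member in CPM per kilobase of exon (vertical axis, logarithmic above 0.1 and linear below) in each SDLN library (blue) and skin library (orange), ordered by the mean over all libraries; the short line is the mean of the tissue. Peli1 is at 25.1 to 28.5 in SDLN and 47.0 to 80.2 in skin, and the skin points of Itch, Nedd4, Rnf128 and Nedd4l spread widely.

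The members differed more among skin libraries than among SDLN libraries, as did genes in general. The coefficient of variation had a median of 0.156 over the members in SDLN and of 0.766 in skin, beside 0.187 and 0.7499 over all tested genes. Peli1 varied least of the 9 in skin, at 0.253, followed by Ndfip1 at 0.361 and Cblb at 0.373, and Rnf128 and Nedd4 varied most, at 1.19 and 1.10. No single skin library was high for all: 2 members peaked in skin 1, 1 in skin 2, 3 in skin 3 and 3 in skin 4. Over the 7 libraries, log2 CPM of Itch and Nedd4l moved together (r = 0.94) and that of Cbl and Ndfip2 moved apart (r = -0.82). These are the highest and the lowest r among all pairs of members, picked for that. Itch and Nedd4l were both lowest in skin 2, at 47 and 0 counts. The r values describe 7 libraries, of which 3 share one tissue and 4 the other.

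**Figure D4:**
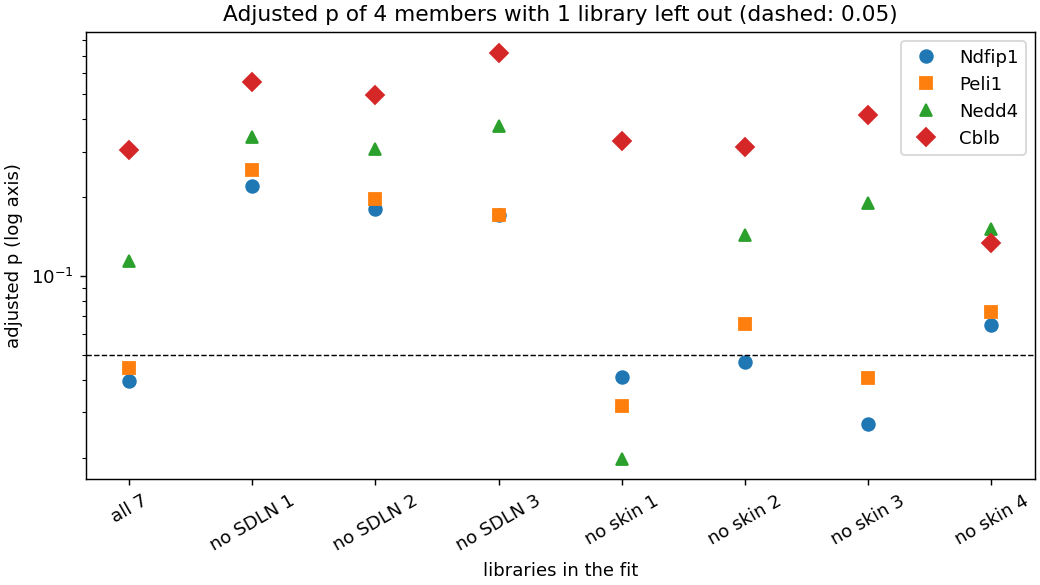
Adjusted p of Ndfip1, Peli1, Nedd4 and Cblb (vertical axis, logarithmic) in the fit on all 7 libraries and in the 7 fits that leave 1 library out; the dashed line is 0.05. Without any 1 SDLN library none of the 4 passes, and Nedd4 passes without skin 1 (0.0200).

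Genes whose pattern was most like that of Ndfip1, by Pearson r of log2 CPM over the 7 libraries among 7045 other genes averaging 20 CPM or more, were Trim28, a corepressor and ligase (r = 0.998), the replication licensing factor Cdt1 (r = 0.996) and the cytokine receptor-like Crlf3 (r = 0.995). Trim28 averaged 67.4 ± 3.73 CPM in the 3 SDLN libraries (SD) and 161 ± 46.0 CPM in the 4 skin libraries (SD). For Peli1 they were the DNA topoisomerase Top2a (r = 0.995), the adaptor complex subunit Ap3d1 (r = 0.993) and Bcl3, an atypical IkappaB protein (r = 0.981). Top2a was at 65.6 ± 5.48 CPM in SDLN and 178 ± 46.6 CPM in skin. The points are 7 libraries of 2 tissues, which differ for all 6 genes in the same direction, skin above SDLN in every library.

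Of 81 other genes of the pathway, 76 passed the low-count filter, 4 of which rose, 7 fell and 65 did not pass, with a median log2 fold change of 0.15. Over all 11376 tested genes, edgeR called 3.28% higher and 3.96% lower. It gave 18.6% an unadjusted p under 0.05, 1142 genes higher and 969 lower. DESeq2 called 923 of the 11376 genes higher and 507 lower, and limma-voom 271 and 729. Ligases related to the members came first. Of 12 tested related ligases, edgeR called 0 higher and 1 lower (1 and 2 at an unadjusted p under 0.05), while DESeq2 called 1 higher and 1 lower and limma-voom 0 and 2. The one that fell was Peli2, a paralogue of Peli1, which was at 2.04, 3.31 and 4.02 CPM in SDLN 1 to 3 and had no count in any skin library, at least 12.5-fold lower against a floor of 3 counts in each skin library (edgeR adjusted p = 0.0380, and 0.165 to 0.176 without 1 SDLN library); limma-voom also called it and DESeq2 did not. Dtx1 (Deltex-1), a ligase that promotes anergy downstream of NFAT, was at 19.6 CPM in SDLN and 3.16 CPM in skin and did not pass (adjusted p = 0.529). Among 16 tested ubiquitin, E1 and E2 genes, 0 rose and 0 fell in edgeR, also at an unadjusted p under 0.05, and in DESeq2 and limma-voom.

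Of 9 deubiquitinases, which remove ubiquitin, edgeR called 0 higher and 1 lower (1 and 3 at an unadjusted p under 0.05), DESeq2 0 and 1, and limma-voom 0 and 3. Over all 11376 tested genes edgeR called 3.28% higher and 3.96% lower (1142 and 969 genes at an unadjusted p under 0.05). DESeq2 called 923 and 507 of them, and limma-voom 271 and 729. Otub2 had 110 counts over the SDLN libraries and 1 over the skin libraries, which is 127 times as many per library size, with a 95% interval from counting error of 22.3 to 5051 (edgeR adjusted p = 0.0394). It did not pass without 1 SDLN library (0.165 to 0.176) and in 2 of 4 fits without 1 skin library (up to 0.0552), and DESeq2 did not call it. Otub1, which regulates the stability of Rnf128, was at 237 CPM in SDLN and 121 CPM in skin, with all skin libraries below all SDLN libraries, and did not pass in edgeR (adjusted p = 0.0580) but was called by DESeq2 and limma-voom.

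Of 23 tested substrates and partners of the ligases, 3 rose, 1 fell and 19 did not pass in edgeR, where 3.28% of all tested genes rose and 3.96% fell. DESeq2 called 6 higher and 2 lower, beside 923 and 507 of all 11376 tested genes. Limma-voom called 1 and 2, beside 271 and 729. Junb, an AP-1 subunit that Itch ubiquitinates, was at 1.97, 2.55 and 1.78 CPM in SDLN 1 to 3 and 34.2, 65.0, 119 and 46.5 CPM in skin 1 to 4 (log2 fold change 4.97, SE 0.74, edgeR adjusted p = 0.0119). Ubash3b (Sts-1), a phosphatase that binds Cbl proteins, was at 84.2, 77.5 and 86.0 CPM in SDLN and 262, 611, 295 and 481 CPM in skin (log2 fold change 2.32, SE 0.37, edgeR adjusted p = 0.0163). For both genes each skin library lay above each SDLN library; limma-voom called Ubash3b and not Junb. The adaptor Grb2 (log2 fold change 1.78, adjusted p = 0.0443) also rose, and the kinase Lck (log2 fold change -1.12, adjusted p = 0.0406) fell; these are named to complete the count. None of the 4 passed without SDLN 1, 2 or 3 (adjusted p 0.0917 to 0.223), and Grb2 and Lck each passed in 2 of 4 fits without 1 skin library.

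Of 16 anergy genes other than the members, 1 rose, 4 fell and 11 did not pass in edgeR, against the same 3.28% and 3.96% of all tested genes. DESeq2 called 3 higher, Nr4a1, Tob1 and Nfatc2, and 4 lower, beside 923 and 507 of all 11376 tested genes. Limma-voom called 1 and 4, beside 271 and 729. Nr4a1, an orphan nuclear receptor induced by T cell receptor signals, was at 99.7, 98.9 and 104 CPM in SDLN and 2637, 2497, 1331 and 1790.1 CPM in skin (log2 fold change 4.35, SE 0.33, edgeR adjusted p = 0.00127), and it passed in each of the 7 fits without 1 library. Dgka, a diacylglycerol kinase that dampens T cell receptor signalling, fell, at 1360, 1456 and 1023 CPM in SDLN and 448, 592, 240 and 425 CPM in skin (log2 fold change -1.58, adjusted p = 0.0380). Nrp1 (log2 fold change -3.19, adjusted p = 0.0204), Izumo1r (-3.65, adjusted p = 0.0342) and Nt5e (-1.17, adjusted p = 0.0394), surface proteins of Tregs and anergic cells, fell too. These 4 did not pass without SDLN 1, 2 or 3 (adjusted p 0.0817 to 0.195); Dgka also failed in 1 and Nt5e in 3 of the 4 fits without 1 skin library. Egr2 and Egr3, factors that induce Cblb in anergic cells, did not pass: Egr2 was at 83.2, 79.3 and 75.7 CPM in SDLN and 57.3, 87.0, 3.61 and 21.3 CPM in skin (edgeR adjusted p = 0.691), and Egr3 had an adjusted p of 0.977.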

How the data were processed

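Sorted Tregs of 3 SDLN and 4 skin samples were profiled by RNA sequencing. The authors deposited raw read counts per gene symbol with no normalization; the submitters' processing notes name HTSeq 0.6.1, SAMtools 0.1.19.0, Bowtie2 2.1.0.0, CASAVA 1.8.2, TopHat2 2.0.12 and the build mm10. For the annotation and strand setting, the sources used here give nothing. The 5 summary lines were left out; multiply aligned reads made up 61.2% to 70.4% of all counts and reads outside genes 10.0% to 17.1%. Reads shared with near-identical copies are therefore not in these values.

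Genes were filtered by filterByExpr (minimum count 10) of edgeR 4.0.16 in R 4.3.3, scaled by TMM and tested with edgeR's quasi-likelihood F test (robust), tissue as the sole term, two-sided, adjusted by Benjamini-Hochberg over all 11376 genes. The SE is the log2 fold change divided by the root of the F statistic. Marker sums are given as values with no test, since the exact permutation test planned for them cannot pass after adjustment over 11 measures unless several reach its smallest p, 0.0286. Floors and counting intervals (95%, exact binomial) cover counting error only. Alternatives used DESeq2 1.42.0 and limma 3.58.1 (limma-voom), other scalings and filters, a replicate block and each library left out. The test was also tested on simulated data.

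Named genes are the 9 members, for each pathway list up to 2 called genes or else the most abundant, the most abundant gene of each list of other cell types, Foxp3, and the 3 genes most like the member with the smallest adjusted p and the most abundant member. Dtx1, Otub1, Tob1, Nfatc2, Egr2 and Egr3 were named after their values were seen. So were the other markers of Tregs and of macrophages and dendritic cells, and the called genes Grb2, Lck, Dgka, Izumo1r and Nt5e. For 1 list, the gene this rule names is not reported here. The members and lists were chosen with earlier results of these data known. Positions and exon lengths are from GENCODE M21 (GRCm38), matched by symbol. Of 133 list symbols 132 matched by name and 1 by an older symbol.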

Additional observations from a re-analysis of the deposited data

Results flagged for a closer look

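No member had a skin library that stood apart by Dixon's test, which compares the gap of the highest or lowest of the 4 skin libraries with their range; the 3 SDLN libraries are too few for it. Of 48 values tested, 9 stood apart. Chance flags about 1 in 20 independent groups, but the 9 are not independent, so their number is not compared with that rate. Col3a1, Krt14 and Klrb1c are each part of a marker sum that is also among the 9. A nonzero value beside zeros in all other skin libraries always stands apart, as for Otub2 and Klrb1c. In skin 3 the fibroblast marker sum stood apart, at 1997 CPM against 2.71 to 8.84 CPM in the other skin libraries, with Col3a1 at 1453 CPM. The keratinocyte marker sum of skin 3 was 561 CPM against 0.0809 to 20.7 CPM, with Krt14 at 335 CPM. The Treg and T cell marker sum of skin 3 was 7249 CPM against 10904 to 11521 CPM. Otub2 was at 0.0881 CPM in skin 3, from 1 count, and at 0 in the other skin libraries. In skin 4 the natural killer cell marker sum was 22.6 CPM, all of it Klrb1c at 22.6 CPM, against 0 in the other skin libraries. Ap3d1 was at 217 CPM in skin 4 against 138 to 141 CPM. Outside the Treg list, B cell marker sums were 78.6 to 102 CPM in SDLN and 2.99 to 38.4 CPM in skin, and endothelial marker sums 388 to 548 CPM and 16.2 to 70.4 CPM, with no overlap between the tissues for either; Pecam1 made up all of the endothelial sum in SDLN.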

How the results depend on the processing

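The 2 members higher in skin became 1 with upper-quartile scaling and 1 with limma-voom, and 0 without the low-count filter, among genes averaging 5 CPM or more, with an adjusted p under 0.01 and with the replicate block on 7 or 6 libraries; without 1 library they numbered 0 to 3. Members lower in skin numbered 0 under each of the 19 alternatives. Of 373 tested genes higher in skin, the count was 188 without the filter, 923 with DESeq2, 594 with limma-voom with a variance weight per tissue and 72 at 0.01, and 33 to 582 without 1 library. Of 451 lower genes it was 70 without the filter, 99 at a mean of at least 5 CPM, 729 with limma-voom, 987 with the variance weight and 16 at 0.01, and 9 to 822 without 1 library. Of the fits without 1 library, those without an SDLN library gave the fewest calls, higher and lower: 39 and 9 without SDLN 1, 33 and 10 without SDLN 2, and 61 and 15 without SDLN 3. Pathway genes that rose, 4, numbered 10 with DESeq2, 2 with limma-voom, 7 with the variance weight and 1 at 0.01, and 1 to 8 without 1 library; those that fell, 7, numbered 2 without the filter, 3 at a mean of at least 5 CPM, 11 with either form of limma-voom and 0 at 0.01, and 0 to 11 without 1 library. With the replicate block on 7 and 6 libraries, tested genes numbered 44 and 32 higher and 12 and 10 lower, and pathway genes 1 and 1 higher and 1 and 0 lower. Deviations of same-numbered libraries from their tissue means correlated at 0.07, -0.0018 and -0.04. SDLN 1 correlated best with its own number, and SDLN 2 and SDLN 3 did not. So few values cannot show whether the titles' numbers pair the libraries. SDLN 3 and skin 3 differ in sex by Ddx3y (3877 and 2 counts) and Xist (4 and 10335 counts), so they are not from the same animal. The causes were not tested.

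Log2 fold changes that turned sign belong to genes that did not pass. Cbl was -0.15 and -0.17 with the replicate block on 7 and 6 libraries. Ndfip2 was -0.0019 with upper-quartile scaling, -0.57 with limma-voom, -0.55 with the variance weight and -0.83 without skin 1 (up to 0.44 without another library). Rnf128 was -0.43 and -0.42 with limma-voom without and with the variance weight, and -2.94 with the replicate block on 7 libraries. Kit, a mast cell marker, was -0.0051 without the filter, -2.79 and -2.77 with limma-voom without and with the variance weight, -5.16 and -5.20 with the block on 7 and 6 libraries, -0.28 without SDLN 3 and -1.49 without skin 4 (up to 0.46 without another library). Of 167 results of the 9 members over the alternatives, 135 kept their direction and side of the threshold. Rnf128 gave no value at a mean of at least 5 CPM, on the 6 libraries, or without skin 3 or skin 4. Counts were few for Rnf128, with 26 over the SDLN libraries, and for Nedd4l, with 148 over the skin libraries.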

Other observations

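Within SDLN, the tightest of the groups, 5 of the 9 members were lowest and 3 highest in SDLN 3. How many of all tested genes were lowest in SDLN 3 was not counted, so the 5 are description only. Itch was at 88.7 CPM there against 173 and 167 CPM, Cblb at 59.9 CPM against 115 and 121 CPM, and Nedd4 at 4.02 CPM against 6.92 and 8.42 CPM. Peli1, Cbl and Ndfip2 were highest in SDLN 3, at 186, 40.5 and 50.4 CPM. SDLN 3 is 1 library, the sole male one by Ddx3y and Xist, so neither the library nor sex can be tested.

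Among RefSeq windows of the members not printed above, the NFAT core GGAAA occurred 3 times before the start of Cbl and 2 times each before those of Cblb, Ndfip2 and Rnf128, and none of the 4 held the AP-1 site TGANTCA. The NFAT core is found in 55.6% of all windows.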
